A study of Homo sapiens with 12 samples.

Results

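The 6 arrays described here measured RNA of MDA-MB-231 cells that had received a scramble short hairpin RNA (shRNA), a control hairpin with no intended target, and they are 6 of the 12 arrays of the study. MDA-MB-231 is an established line of human breast carcinoma, triple-negative and mesenchymal in kind. The scramble arrays form 2 sets of 3 biological replicates. The labels tag 1 set (replicates A, B and C) with LSD1 and leave the other (replicates 1, 2 and 3) untagged. The remaining arrays are 3 of cells with HDAC5 shRNA and 3 of cells with LSD1 shRNA, against a histone deacetylase and a histone demethylase. In all 4 groups the hairpins came in lentiviral particles and the cells were kept in the line's usual culture conditions. Whether the cells were selected or cloned, how long they were cultured and what separated the replicates is not stated in the labels. The p-values therefore measure the spread between these arrays, part of which may be technical. Both sets carry the same kind of control, and a comparison of them shows how far 2 sets of scramble arrays differed. The tag, the culture and the array run cannot be told apart.

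Each array was turned into ranks of 11963 genes, with 1 probe set per gene, and a gene's position is given as a percentile from 0 (dimmest) to 100 (brightest). A percentile depends on the probe set's own affinity as well as on the RNA, so positions of different genes show roughly bright or dim signals only. A difference between the sets is given in percentile points, as untagged minus tagged. Ranks have little room to move close to 100, so for the leading genes the difference in quantile-normalised log2 signal is given too. A gene was called when limma's Benjamini-Hochberg adjusted p over all genes was under 0.05. By that rule 66.6% of the genes were called, and in 74.3% the arrays of the sets did not overlap, so a single call is to be read against these shares.

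Some background helps to read the gene groups. Carcinoma cells of a mesenchymal kind express vimentin and matrix-related genes strongly and have lost E-cadherin and the estrogen receptor. Genes of DNA replication are switched on by E2F transcription factors as cells enter S phase, so their RNA is more abundant where more cells are cycling. The integrated stress response is a programme that many stresses, including shortage of amino acids, set off by slowing general translation. The transcription factor ATF4 is then made and turns on genes for amino acid synthesis and transport, for tRNA charging and for secreted stress factors.

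The arrays of a set were alike and the sets were apart. Spearman's rho over the 11963 genes, which are not independent, was 0.9986 to 0.9991 between untagged arrays, 0.9941 to 0.9978 between tagged arrays and 0.9616 to 0.9743 between the sets. The median SD of a gene over 3 arrays was 0.660 points in the untagged and 1.06 points in the tagged set. Among the tagged arrays, A was farthest from the untagged set (rho 0.9616 to 0.9628). Signal and RNA quality measures moved with the set. Array medians of the deposited log2 values were 6.84 to 6.85 untagged and 7.25 to 7.31 tagged, and the 3′ minus 5′ difference of the ACTB control probe sets was 0.90 ± 0.06 against 1.30 ± 0.06 (log2; SD, n = 3). An exact two-sided permutation test of that difference gave p = 0.1, the smallest that 3 arrays against 3 allow. The corresponding GAPDH differences were 0.03 untagged and 0.00 tagged. The part of these measures in the rank differences was not tested.

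In both sets the mesenchymal and basal markers VIM, CD44 and EGFR were bright, and the epithelial and luminal markers CDH1 and ESR1 were dim. VIM, which encodes the intermediate filament vimentin, was at 99.7 on every one of the 6 arrays. CD44, a hyaluronan receptor, was at 95.3, 95.0 and 95.5 untagged and at 97.0, 95.6 and 96.1 tagged. Its difference did not pass the test (adjusted p = 0.062), and without tagged replicate B it did. EGFR, the epidermal growth factor receptor, was at 82.4, 82.8 and 85.2 untagged and at 89.2, 90.3 and 87.7 tagged, so all 3 tagged arrays lay above the untagged ones. The difference was -5.6 points (SE 0.95, adjusted p = 0.0021).

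CDH1, which encodes E-cadherin, was at 9.1, 7.3 and 7.6 untagged and at 7.7, 9.3 and 11.4 tagged, so the sets overlapped (adjusted p = 0.23). ESR1, the estrogen receptor, was at 32.5, 31.8 and 32.1 untagged and at 34.6, 33.9 and 34.8 tagged. To read such dim positions, 22 genes restricted to other organs, such as albumin and cardiac myosin, served as a reference. Their median position over the 6 arrays was 16.4, their middle 50% lay between 9.78 and 26.1 and the highest mean was 40.4. CDH1 and ESR1 were thus within the range of these genes. ESR1 was called (-2.3 points, adjusted p = 0.015), but without untagged replicate 2 it was not, and its 9 probe sets gave differences from -13.0 to 11.4 points.

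**Figure D1:**
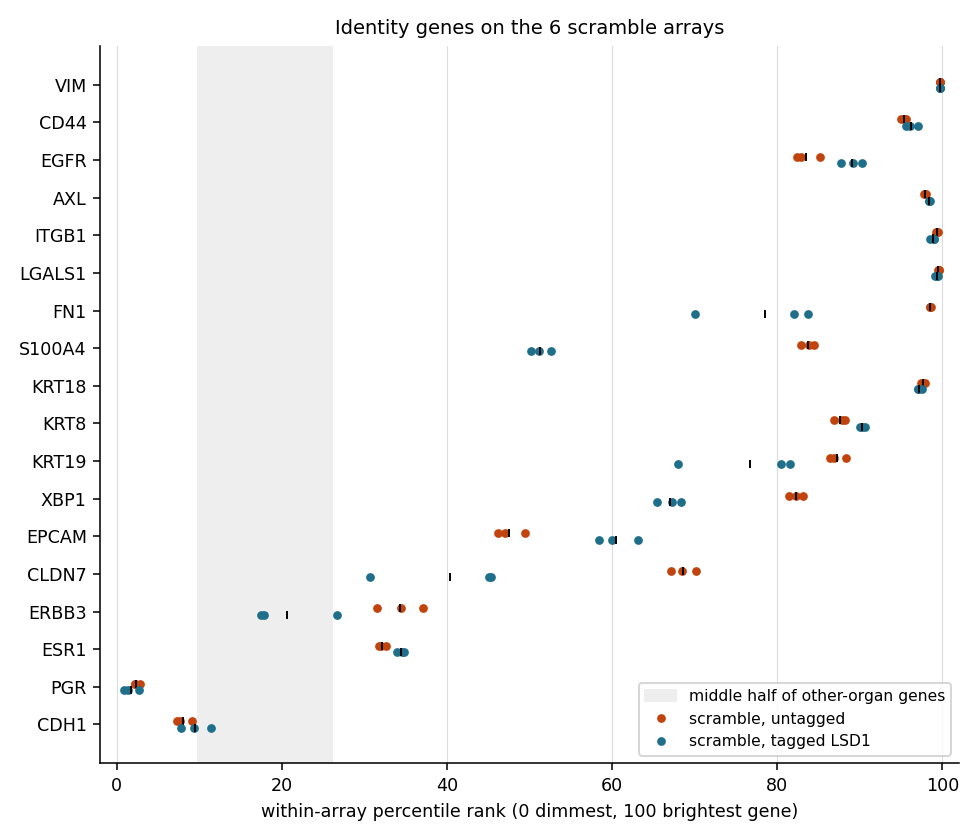
Within-array percentile rank of 18 identity genes on the 6 scramble arrays; each dot is 1 array, black ticks are means of 3 arrays, and the grey band is the range of 9.78 to 26.1 that holds the middle 50% of 22 genes restricted to other organs. VIM, AXL, ITGB1 and LGALS1 are near 100 in both sets and CDH1 is below 12 in both, while FN1, S100A4 and CLDN7 are higher on every untagged array than on any tagged one.

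The wider mesenchymal list was bright too. Its 32 measured genes had a median position of 87.1, and 20 of them were above 75 on all 6 arrays. ANXA2 (99.8 in both sets), LGALS1 (99.5 and 99.3), ITGB1 (99.3 and 98.9) and ANXA1 (99.1 and 99.3) were at the top. AXL, a receptor tyrosine kinase of invasive cells, was at 97.9 untagged and 98.4 tagged. ZEB1, a repressor of epithelial genes, was at 84.6 and 81.3, and TWIST1, another such factor, was at 3.6 and 2.2.

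Some epithelial and luminal genes were bright as well. KRT18 was at 97.7 and 97.2, KRT8 at 87.6 and 90.3, KRT7 at 94.6 and 95.4, and the desmosome genes DSG2 and DSP at 94.7 and 94.2, and at 94.5 and 87.6. The median position was 52.1 for 21 luminal genes and 38.0 for 23 epithelial genes. By set, the luminal medians averaged 57.3 untagged and 46.9 tagged, and the epithelial ones 43.3 and 37.6. The median differences of single genes were smaller, 0.71 and 1.52 points. Called higher and lower untagged were 7 and 6 luminal genes, and 10 and 4 epithelial genes. PGR, the progesterone receptor, was at 2.4 untagged and 1.7 tagged. Of 15 genes of fibroblasts and endothelium, 8 were below 25 on all 6 arrays, among them LUM (0.1 and 1.1) and CDH5 (7.1 and 10.9), and none was above 75 on all 6.

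The brightest genes were those of protein synthesis. All 24 listed genes of cytosolic ribosomal proteins were above 90 on every array, with a median difference of 0.00 points, and 1 of them was called. Ranks so near 100 hardly move: after quantile normalisation of the log2 signal 7 of the 24 were called higher and 5 lower untagged, and on the deposited values 0 and 23. The 10 genes with the highest lowest position were EEF1A1, the translation elongation factor, and 9 ribosomal protein genes. In all, 891 genes were in the top 10% on all 6 arrays, which is 74.5% of the 1196 such genes of an array. A further 2469 genes were below 25 on all 6.

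Against this shared profile, most genes took slightly different ranks. Of 11963 genes, 7969 (66.6%) were called, 3885 (32.5%) higher and 4084 (34.1%) lower in the untagged set. In 8885 genes (74.3%) the arrays of the sets did not overlap. Most of these differences were small: the median size was 3.61 points, 7390 genes (61.8%) lay within 5 points, and the median of all differences was -0.04. The call alone therefore separates little, and gene groups below are read against 32.5% higher and 34.1% lower. On the log2 values as deposited, 9276 genes were called, 1528 higher and 7748 lower untagged, with a median difference of -0.41 over all genes. This shift lowers the share of higher calls in most gene lists as well: the mesenchymal list had 7 higher and 18 lower, hypoxia and glycolysis 6 and 21, and the respiratory chain 0 and 26. After quantile normalisation 3978 were higher and 4172 lower.

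A difference of at least 20 points that was also called was found in 177 genes (1.48%), 108 higher (0.903%) and 69 lower (0.577%) in the untagged set. The value just inside this limit was 20.02 points in size (STYK1) and the value just outside was 19.995 (PKLR). Some genes of both directions averaged below 40.4, the highest mean of the genes of other organs, in both sets. Examples are LTA (8.2 untagged and 36.6 tagged), SSTR5 (5.9 and 29.2), TNFSF15 (26.7 and 2.8) and JAM2 (34.3 and 13.1). The size of such differences is not exact, and these genes were not counted separately. Of the 69 lower genes, 20 belong to the replication and mitosis lists, and of the 108 higher genes, 10 belong to the stress response list. Those are the groups described next.

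**Figure D2:**
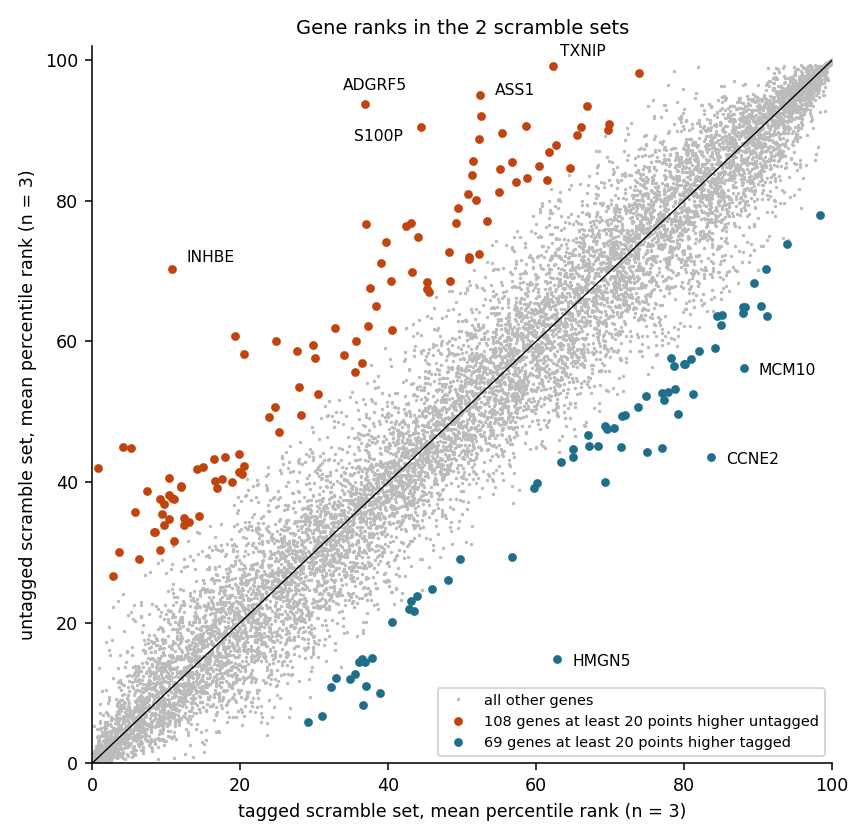
Mean percentile rank of 11963 genes in the untagged set (vertical) against the tagged set (horizontal), n = 3 arrays each, with the line of equal rank. Coloured points are the 108 genes at least 20 points higher and the 69 at least 20 points lower untagged; most other genes lie close to the line, and INHBE, ADGRF5 and HMGN5 lie farthest from it.

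Genes of DNA replication were lower in the untagged set without exception among those listed. All 44 measured genes were called lower, 17 of them by at least 20 points, and the median difference was -15.56 points, against -0.04 over all genes. The list's median position was 62.2, 60.3 and 61.9 on the untagged arrays and 82.4, 82.3 and 83.2 on the tagged ones. All 44 were also called lower without any single array, on the deposited log2 values and after quantile normalisation. In RNA of whole cultures, fewer cycling cells and less RNA per cell cannot be told apart.

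The largest difference in the list was in CCNE2, the cyclin E2 that drives entry into S phase. It was at 47.1, 40.4 and 43.1 untagged and at 83.0, 83.2 and 84.6 tagged. The sets were far apart, by -40.1 points (SE 1.72, adjusted p = 1.1e-05) and by -3.47 in normalised log2 signal, and its 2 probe sets were both lower.

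GINS2 and GINS1 encode subunits of the GINS complex, part of the replicative helicase. GINS2 was at 46.2, 44.0 and 44.2 untagged and at 78.9, 75.3 and 76.9 tagged. GINS1 was at 65.1, 61.8 and 64.1 untagged and at 91.0, 91.3 and 91.0 tagged. For MCM10, a factor that helps to start forks, the positions were 57.1, 55.4 and 56.0 untagged and 89.5, 86.9 and 87.8 tagged. The differences of these 3 genes were -32.2 (SE 1.21), -27.4 (SE 0.89) and -31.9 (SE 0.89) points. All 3 were named from among genes without overlap, so their lack of overlap is no further evidence.

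E2F8, itself a target and a repressor of the E2F network, was at 44.5, 43.7 and 44.4 against 76.1, 73.5 and 75.2. The nucleotide enzyme RRM2 went from 79.1, 75.8 and 78.9 untagged to 98.5, 98.1 and 98.6 tagged, a log2 difference of -2.71 although the rank difference was -20.4. Genes whose probe sets were bright throughout moved by fewer points. PCNA, the sliding clamp, was at 86.6 ± 1.5 untagged and 97.8 ± 0.22 tagged, and TYMS, thymidylate synthase, at 87.7 ± 0.82 and 98.1 ± 0.07 (SD, n = 3). The smallest differences in the list included DUT, at 97.8 and 99.2, and CCNE1, at 51.8 and 55.3.

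The promoters of these genes often held an E2F motif. It was searched on both strands as TTTCGCGC, TTTGGCGC or TTTCCCGC in the 300 bases from 250 before to 50 after the start, in promoters from RefSeq on GRCh38.p14. A match was found in 19 of the 39 replication genes with a promoter in the table (48.7%), against 394 of 9563 measured genes (4.12%). The mitosis list had 3 of 30 (10%) and the stress response list 0 of 27. A match is a description of the letters and no proof of binding. The next 4 windows, from upstream parts of genes that were at least 20 points lower untagged, show the match in capitals, on either strand, in the gene's own direction.
GINS2 (chr16:85688955-85689054, minus strand): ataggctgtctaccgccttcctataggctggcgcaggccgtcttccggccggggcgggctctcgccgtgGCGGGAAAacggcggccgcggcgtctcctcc
LIG1 (chr19:48170405-48170504, minus strand): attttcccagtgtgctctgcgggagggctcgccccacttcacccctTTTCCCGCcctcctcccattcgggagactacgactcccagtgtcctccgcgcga
POLA2 (chr11:65261862-65261961, plus strand): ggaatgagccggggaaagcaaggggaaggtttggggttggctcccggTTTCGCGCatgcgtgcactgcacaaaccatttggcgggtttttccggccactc
POLE (chr12:132687343-132687442, minus strand): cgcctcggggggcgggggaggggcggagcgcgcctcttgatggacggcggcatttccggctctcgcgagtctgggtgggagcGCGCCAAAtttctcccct
LIG1 is the DNA ligase that joins Okazaki fragments and was at 49.6 ± 0.96 untagged and 72.0 ± 1.05 tagged. POLA2 and POLE encode subunits of the polymerases alpha and epsilon. POLA2 was at 39.1 ± 1.07 and 59.7 ± 0.67, and POLE at 44.7 ± 1.42 and 65.0 ± 0.99 (SD, n = 3).

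Genes of mitosis followed with smaller differences. All 36 were called lower untagged, 3 of them by at least 20 points, with a median of -8.68 points. With the mean of the probe sets 33 of the 36 were called lower. Without probe sets that can match related genes, 22 of 24 were called lower and 1 higher. AURKB, the kinase of the chromosomal passenger complex, was at 59.7, 58.7 and 58.8 untagged and at 86.0, 83.0 and 83.7 tagged. FOXM1, the transcription factor of G2 and M genes, was at 71.0, 69.4 and 70.6 and at 92.3, 89.7 and 91.2. KIF23, a kinesin of cytokinesis, differed by -23.3 points (SE 0.99). MKI67, the proliferation marker Ki-67, was at 66.8 ± 1.8 untagged and 82.6 ± 4.0 tagged (SD, n = 3; adjusted p = 0.00062). CDC25A, the phosphatase that activates CDK2, and CDCA3 lie outside both lists and differed by -29.3 and -28.6 points.

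Other growth genes moved less, and not all one way. Of 22 genes of CDK inhibitors, D cyclins and p53 targets, 5 were called higher and 11 lower untagged, and 3 and 10 without untagged replicate 3. RBL2, the pocket protein p130 of resting cells, was 15.9 points higher untagged (SE 2.01), and CDKN2B, the inhibitor p15, was 16.0 points lower, at 9.4 and 25.4, both within the range of the genes of other organs. CDKN1A, the inhibitor p21, was at 64.0 and 65.6 and was not called. Of 21 genes of ribosome biogenesis and MYC targets, 4 were called higher and 14 lower, with a median of -1.90 points. SRM, spermidine synthase, differed by -16.4 points, whereas MYC itself was at 81.9, 83.2 and 82.7 untagged and at 71.4, 70.0 and 79.5 tagged, 9.0 points higher untagged (adjusted p = 0.014).

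The integrated stress response list showed the opposite direction to replication. Of its 32 measured genes, 28 were called higher and 2 lower in the untagged set, 10 of them higher by at least 20 points, with a median of 10.75 points. The list's median position was 81.7, 81.6 and 81.3 on the untagged arrays and 63.7, 68.3 and 66.4 on the tagged ones. The count of higher genes was 27 or 28 without any single array. On the deposited log2 values 24 were called higher and 3 lower.

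INHBE, a secreted activin subunit that ATF4 and related factors induce, had the largest difference of all genes. It was at 69.5, 71.3 and 70.1 on the untagged arrays and at 6.5, 14.4 and 11.5 on the tagged ones. The difference was 59.5 points (SE 1.96, adjusted p = 6.3e-06) or 5.28 in log2 signal. The tagged positions were those of genes of other organs, so the size of the ratio is not exact.

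Of the list's members for amino acid synthesis, 5 with large differences are given. ASS1, which makes argininosuccinate for arginine synthesis, was at 95.1, 95.4 and 94.5 untagged and at 50.5, 56.6 and 50.1 tagged, a difference of 42.6 points (SE 1.72). CTH, which makes cysteine, was at 89.0, 88.1 and 89.0 untagged and at 48.8, 55.5 and 52.6 tagged, and both its probe sets were higher. The serine synthesis genes PHGDH and PSAT1 differed by 23.8 points each (SE 1.82 and 1.32). ASNS, asparagine synthetase, was at 98.9, 99.0 and 99.1 untagged and at 72.9, 89.1 and 83.6 tagged. These 5 genes were picked for large differences, so their lack of overlap, found in 74.3% of all genes, is no further evidence.

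Regulators and secreted members followed. ATF4 was at 99.0, 99.1 and 98.9 untagged and at 94.9, 94.5 and 95.2 tagged, only 4.2 points apart but 1.19 in log2 signal (SE 0.04). TRIB3, a pseudokinase that ATF4 induces, was 24.5 points higher (SE 1.36), and DDIT3, the factor CHOP, was at 74.6 untagged and 62.6 tagged. CHAC1, a glutathione-degrading enzyme, was at 70.7, 72.0 and 70.9 untagged and at 36.6, 42.7 and 37.9 tagged. DDIT4, an inhibitor of mTORC1, was at 98.2 ± 0.16 untagged and 73.8 ± 12 tagged (SD, n = 3), with tagged replicate B at 87.5. GDF15, a secreted stress factor, was at 89.8, 90.6 and 88.6 untagged and at 45.1, 65.6 and 55.7 tagged, but its other probe set differed by -0.1 points.

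The 2 members called lower untagged were PPP1R15A and ATF5. PPP1R15A, a phosphatase subunit that restores translation, was at 61.0, 61.5 and 59.9 untagged and at 85.5, 71.6 and 80.2 tagged. ATF5, a transcription factor whose translation stress favours, differed by -12.8 points (SE 1.48).

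The ATF4 element, written TGATGNAA and searched on both strands in the same promoters, was found in 5 of 27 stress response genes (18.5%). It was also found in 5 of 13 cytosolic tRNA synthetase genes (38.5%), against 215 of 9563 measured genes (2.25%) and 0 of 39 replication genes. The 5 stress response genes were ATF3, CHAC1, ASNS, SLC3A2 and SLC7A1. The windows of 3 of them are shown, with the match in capitals.
CHAC1 (chr15:40953221-40953320, plus strand): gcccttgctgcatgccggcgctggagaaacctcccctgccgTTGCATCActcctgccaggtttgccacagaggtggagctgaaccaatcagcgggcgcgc
ASNS (chr7:97872423-97872522, minus strand): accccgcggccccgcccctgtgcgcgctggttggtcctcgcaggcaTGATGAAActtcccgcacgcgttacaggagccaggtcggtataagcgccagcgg
ATF3 (chr1:212565170-212565269, plus strand): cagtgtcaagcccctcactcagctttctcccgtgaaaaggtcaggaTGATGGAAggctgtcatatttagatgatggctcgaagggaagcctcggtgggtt
ATF3, a stress-induced repressor, was at 58.9, 60.6 and 58.9 untagged and at 42.7, 39.9 and 56.6 tagged, so tagged replicate C came close to the untagged arrays (adjusted p = 0.028).

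The tRNA synthetases, which charge tRNAs with amino acids, were 11 higher and 2 lower of 16, with a median of 2.94 points. On the deposited log2 values 11 were called higher and 5 lower. Without probe sets that can match related genes, 6 of 10 were called higher and 3 lower. AARS1 was at 92.8, 93.4 and 92.5 untagged and at 76.0, 79.7 and 77.0 tagged. LARS1, WARS1 and EPRS1 were 10.2, 9.6 and 8.0 points higher. FARSA, KARS1 and VARS1 were not called, and HARS1 and RARS1 were called lower.

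**Figure D3:**
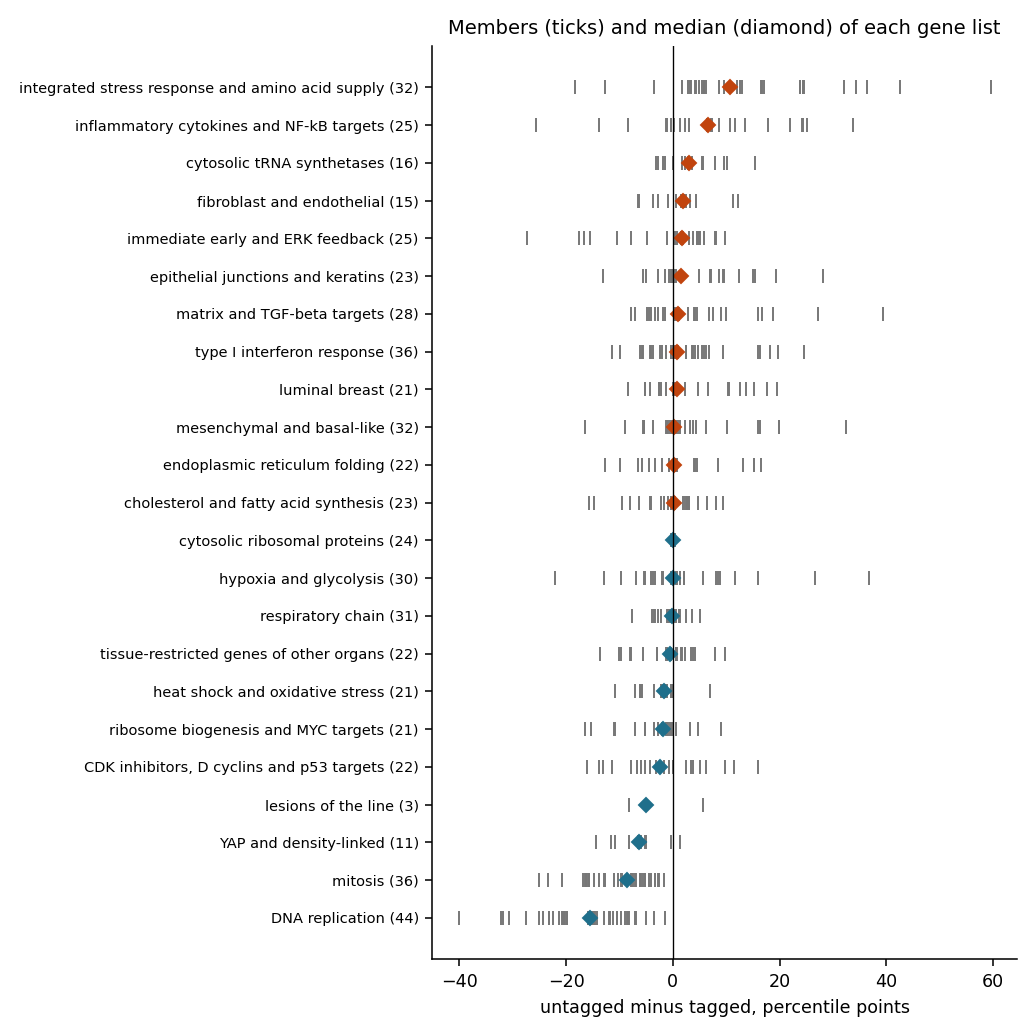
Difference in percentile rank, untagged minus tagged, for every measured member of 23 gene lists (grey ticks) with the median of the list (diamond, orange above 0 and blue below 0); the number of measured genes is in brackets. All ticks of DNA replication and mitosis lie below 0, most of those of the integrated stress response lie above 0, and those of the ribosomal proteins lie together at 0.

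Other stress programmes did not share one direction. Of 22 genes of folding in the endoplasmic reticulum, 8 were called higher and 9 lower, near the shares over all genes. The chaperone HSPA5 (BiP) was at 98.2 and 98.0 and was not called, while DNAJB9 and EDEM1 were 16.5 and 15.3 points higher and DNAJC3 was 12.7 points lower. Among 21 heat shock and oxidative stress genes, 1 was higher (GCLC, 6.9 points) and 12 were lower, of which NQO1 differed most (-10.8 points). The metallothionein MT2A was at 99.7 and 99.6. In the hypoxia and glycolysis list 11 of 30 were higher and 9 lower. The angiogenic factor VEGFA was at 93.5, 93.6 and 93.5 untagged and at 57.6, 72.2 and 70.9 tagged, whereas ADM, the vasodilator adrenomedullin, was 22.1 points lower untagged. LDHA and PGK1, glycolytic targets of hypoxia, differed by under 1 point and were not called.

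TXNIP, an inhibitor of thioredoxin and of glucose uptake whose RNA follows glucose supply, showed 1 of the largest differences in signal. It was at 99.0, 99.1 and 99.2 untagged and at 67.6, 62.8 and 56.4 tagged. The difference was 36.8 points (SE 2.56) or 4.31 in log2 signal (SE 0.20), and its 3 probe sets were all higher untagged.

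Cytokine genes were more often higher untagged. Of 25 inflammatory and NF-kB target genes, 13 were called higher and 3 lower, with 5 and 1 past 20 points and a median of 6.53 points. PTGS2, the prostaglandin synthase COX-2, was at 76.1, 78.8 and 75.8 untagged and at 27.7, 51.2 and 50.4 tagged. CXCL8, the chemokine IL-8, was at 87.5, 86.9 and 86.3 untagged and at 54.2, 67.6 and 63.5 tagged. In both genes tagged replicate A was lowest. IL11, a cytokine of the IL-6 family, ran the other way, at 51.1, 51.1 and 52.7 untagged and at 78.7, 79.9 and 73.2 tagged. On the deposited log2 values the list had 11 higher and 8 lower.

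Of 36 interferon response genes, 15 were called higher and 6 lower, with a median of 0.82 points that became 2.09 without tagged replicate A. Without untagged replicate 2 the counts were 9 and 5, and on the deposited log2 values the balance turned, to 6 higher and 16 lower. IFI44L, an interferon-induced gene, was at 32.9 untagged and 8.3 tagged, both in the range of the genes of other organs. ISG15 was at 86.3 and 86.7 and was not called.

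The immediate early genes were split, 13 higher and 7 lower of 25, and on the deposited log2 values 5 higher and 10 lower. FOS, a subunit of the AP-1 factor, was at 29.3, 29.1 and 29.4 untagged and at 49.7, 51.1 and 69.3 tagged (adjusted p = 0.0027). DUSP1, the phosphatase that switches off MAP kinases, was at 78.6, 77.8 and 80.7 untagged and at 94.6, 96.2 and 96.5 tagged. DUSP6 and KLF4 were higher untagged, at 99.0 and 96.0, and at 94.8 and 85.1. Of 11 YAP targets and related genes, 8 were called lower untagged and 0 higher, with a median of -6.42 points. Without tagged replicate C 1 of them was called higher. ANKRD1, a YAP target, was at 86.1 untagged and 94.4 tagged, while CCN1 and CCN2 were not called.

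Within the mesenchymal and matrix lists, single genes differed strongly while the medians were 0.26 and 1.05 points. Of the 32 mesenchymal genes 11 were called higher and 8 lower, and of the 28 matrix genes 11 and 5, which became 10 and 3 without untagged replicate 2 or 3. FN1, fibronectin, was at 98.5, 98.6 and 98.5 untagged and at 70.0, 83.7 and 82.0 tagged, and all 6 of its probe sets were called higher untagged. S100A4, a calcium-binding protein of motile cells, was at 84.4, 82.9 and 83.8 untagged and at 50.2, 51.1 and 52.6 tagged. TNC, tenascin C, was at 91.2, 92.3 and 92.8 untagged and at 34.5, 60.2 and 63.0 tagged. FOSL1, the AP-1 factor FRA1, differed the other way by -16.4 points. The luminal genes TFF1 and TFF3, secreted trefoil factors, were 17.6 and 19.5 points higher untagged. CLDN7, a tight junction claudin, was 28.2 points higher (SE 3.90), and EPCAM, an adhesion protein of epithelia, was 13.0 points lower (SE 1.52). KRT19 was 10.6 points higher (adjusted p = 0.031), but 6.2 points without tagged replicate A, and it lost its call when any 1 untagged array was left out.

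Lists of basic metabolism had medians near 0. The respiratory chain had 7 of 31 genes called higher and 11 lower, and none differed by 10 points. Its count of higher genes was 4 when untagged replicate 1 or 2, or tagged replicate B or C, was left out. Cholesterol and fatty acid synthesis had 1 of 23 higher and 5 lower. That list depended on tagged replicate A, without which 5 were called higher and 12 lower and the median went from 0.18 to -1.78 points. Without tagged replicate B the counts were 3 and 4, and on the deposited log2 values 0 and 13. The genes for FASN and FADS2, which make fatty acids and desaturate them, were 14.8 and 15.7 points lower untagged.

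Several large differences were in genes outside the lists. TCIM, IL13RA2 and RADX, at 41.2, 40.9 and 39.5 points, are in the same range of size but averaged under 50 in both sets. ADGRF5, an adhesion G protein-coupled receptor, was at 93.9, 93.5 and 94.0 untagged and at 34.5, 48.6 and 27.4 tagged, with both probe sets higher untagged. S100P, a calcium-binding protein of carcinomas, was at 90.6, 91.3 and 89.7 untagged and at 36.9, 50.6 and 45.6 tagged. KDM7A, a histone demethylase, was 39.6 points higher untagged (SE 1.22), GALNT6, a glycosyltransferase that starts O-glycans, 41.5 points (SE 2.94), and TCN1, a vitamin B12 carrier, 37.7 points (SE 1.87). In the other direction HMGN5, a nucleosome-binding protein, was at 16.3, 13.9 and 14.5 untagged and at 58.4, 64.1 and 65.9 tagged, -47.9 points (SE 1.95). The second probe set of HMGN5 differed by 8.8 points the other way. C4BPB, a complement regulator, differed by -26.4 points (SE 3.09).

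The targets of the study's hairpins were close in both sets. HDAC5 was at 51.0, 49.6 and 47.9 untagged and at 44.3, 49.1 and 40.3 tagged (adjusted p = 0.085), and without tagged replicate B it was called. KDM1A, the gene of LSD1, was at 75.2 untagged and 72.7 tagged (adjusted p = 0.011). On the LSD1 shRNA arrays KDM1A was at 37.0 on average, and on the HDAC5 shRNA arrays HDAC5 was at 39.7. That HDAC5 mean was near tagged replicate C (40.3) and within the range of the genes of other organs (highest mean 40.4). So was the KDM1A mean.

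**Figure D4:**
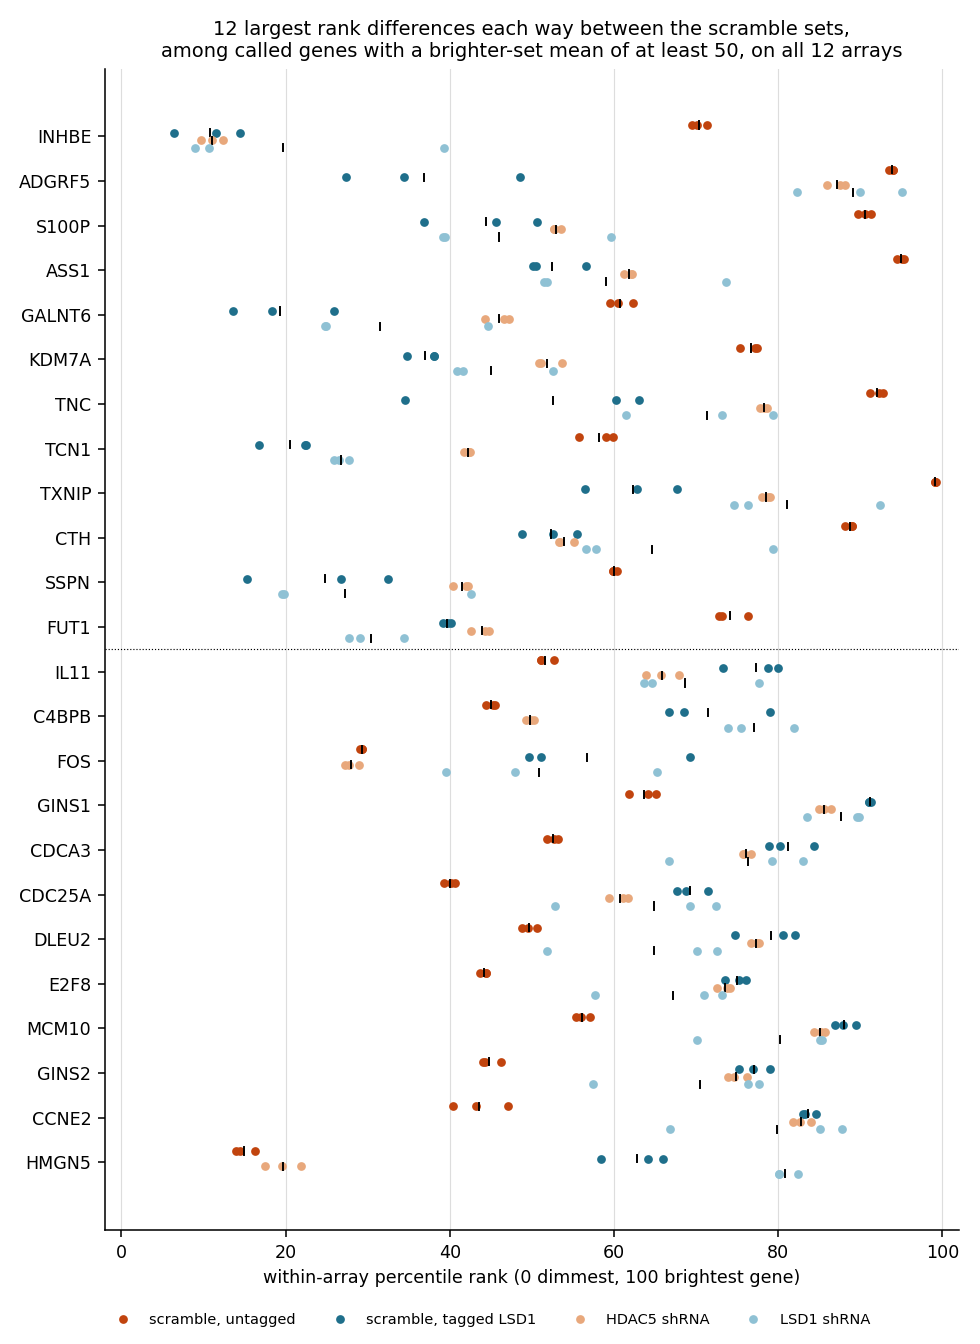
Percentile rank on all 12 arrays (dots; black ticks are means of 3) of the 12 genes with the largest rank differences each way between the scramble sets, among called genes without overlap whose brighter set averages at least 50, higher untagged above the dotted line and lower below it. For CCNE2, GINS2 and MCM10 the HDAC5 shRNA arrays lie near the tagged scramble arrays, for HMGN5 and FOS they lie near the untagged ones, and for ADGRF5 only the tagged scramble arrays are low.

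The 6 shRNA arrays show where each difference stood in cells without a scramble hairpin. Between the HDAC5 shRNA and the LSD1 shRNA arrays 5794 genes (48.4%) were called, 2952 (24.7%) higher and 2842 (23.8%) lower with HDAC5 shRNA. That comparison also holds the effects of both hairpins. Of the 108 genes at least 20 points higher untagged, 47 were called higher and 10 lower on the HDAC5 shRNA arrays, with a median of 7.01 points. Of the 69 genes lower untagged, 29 were called lower and 1 higher, with a median of -3.39 points. LSD1 shRNA replicate 2 stood apart from its group. Without it 7205 genes were called.

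Few replication genes were called in that comparison. The list's median position was 81.3, 81.6 and 81.3 with HDAC5 shRNA and 80.6, 67.9 and 82.1 with LSD1 shRNA, where replicate 2 was the low one. Of the 44 genes 1 was called higher and 0 lower with HDAC5 shRNA. CCNE2 was at 82.6, 84.0 and 81.8 with HDAC5 shRNA and at 87.8, 66.8 and 85.0 with LSD1 shRNA. The untagged scramble arrays, at 47.1 or below, were thus beneath the other 9 arrays. MCM10 showed the same order, with 84.3 to 85.6 for HDAC5 shRNA and 70.1 to 85.3 for LSD1 shRNA against 57.1 or less.

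The stress response list had medians of 58.2, 59.7 and 59.9 with HDAC5 shRNA and 64.6, 73.6 and 65.9 with LSD1 shRNA, all below the 81.3 to 81.7 of the untagged scramble arrays. INHBE was at 11.0, 12.4 and 9.6 with HDAC5 shRNA and at 10.7, 39.3 and 9.0 with LSD1 shRNA. LSD1 shRNA replicate 2 was thus the only one of the 9 other arrays above 15 for INHBE. CTH was at 53.3 to 55.1 with HDAC5 shRNA and at 57.8, 79.4 and 56.6 with LSD1 shRNA.

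**Figure D5:**
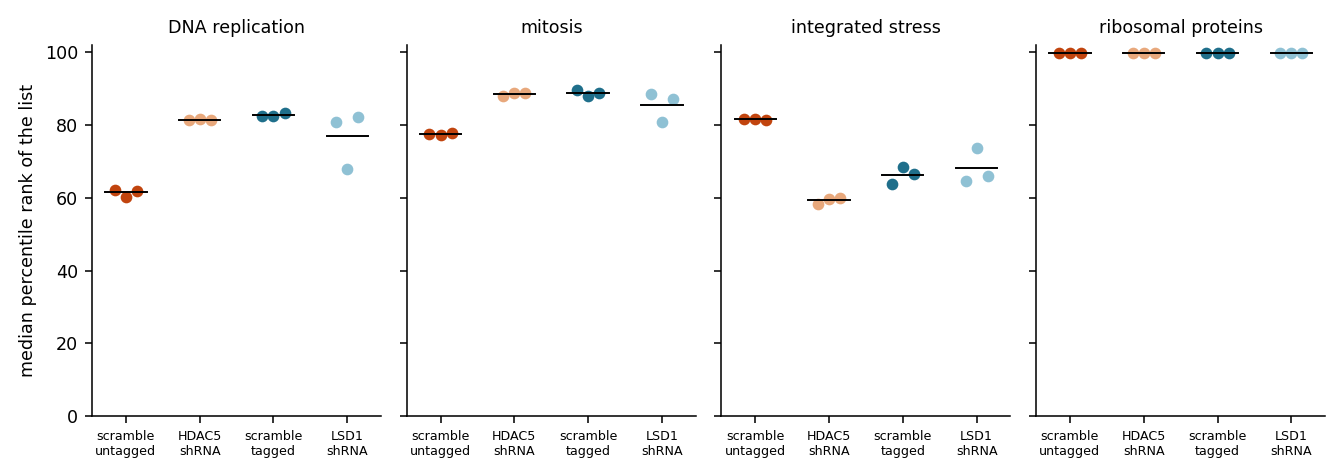
Median percentile rank of 4 gene lists on each of the 12 arrays (dots; lines are means of 3 arrays). The 3 untagged scramble arrays are lowest for DNA replication and mitosis and highest for the integrated stress response, and the ribosomal protein medians are 99.6 or 99.7 on every array.

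Other genes split the 12 arrays differently, with the HDAC5 shRNA arrays beside the untagged scramble arrays and the LSD1 shRNA arrays beside the tagged ones. Signal and RNA quality measures split the same way. Array medians of the deposited log2 values averaged 6.85 untagged and 6.83 with HDAC5 shRNA, against 7.27 tagged and 7.29 with LSD1 shRNA. In the same order, the ACTB 3′ minus 5′ difference was 0.90 and 0.68 against 1.30 and 1.43. The part of these measures in the split of the genes was not tested. HMGN5 was at 17.5, 21.9 and 19.6 with HDAC5 shRNA and at 80.1, 80.1 and 82.4 with LSD1 shRNA. DUSP1 was at 75.3, 74.4 and 75.1 and at 90.9, 96.3 and 95.4. COL6A3, a collagen VI chain, was at 41.9, 42.2 and 42.2 untagged and 35.6, 36.8 and 35.6 with HDAC5 shRNA, and at 14.8, 15.4 and 14.8 tagged and 14.1, 12.7 and 12.9 with LSD1 shRNA. CCL2, a monocyte chemokine, was at 33.9 untagged, 36.4 with HDAC5 shRNA, 9.7 tagged and 11.7 with LSD1 shRNA. All these CCL2 means lay within the range of the genes of other organs (highest mean 40.4). So did the COL6A3 positions outside the untagged set, so the size of these differences is not exact. HMGN5, DUSP1, COL6A3 and CCL2 are given here because they split this way. That their HDAC5 and LSD1 shRNA arrays did not overlap is therefore no further evidence. Each was called between the shRNA groups, as were 48.4% of all genes.

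A different pattern set the tagged scramble arrays apart from all others. ADGRF5 was at 85.9 to 88.2 with HDAC5 shRNA and at 82.3 to 95.1 with LSD1 shRNA, against 48.6 or less on the tagged scramble arrays. FN1 was at 96.7, 97.1 and 96.9 and at 96.8, 98.7 and 96.2, against 83.7 or less. Counted over the 108 genes higher untagged, the HDAC5 shRNA mean was within 10 points of the untagged mean in 34 and of the tagged mean in 49, and the LSD1 shRNA mean in 16 and 74. Over the 69 genes lower untagged, these numbers were 25 and 42 for HDAC5 shRNA, and 1 and 63 for LSD1 shRNA. Both groups of genes were selected on the same scramble arrays that serve as reference here. Both also include genes whose means lay within the range of the genes of other organs in both scramble sets. The shares over all genes were not computed, so no conclusion is drawn from these counts.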

How the data were processed

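RNA of 12 MDA-MB-231 cultures was measured on Affymetrix 3′ expression arrays, 1 per sample, in 4 groups of 3 taken from the labels. The deposited values are log2 signals of 22277 probe sets that the authors made with RMA and affy, per the submitters' processing notes. No version is given in the sources used here, and whether the 12 arrays went through RMA in a single run is not stated. RMA equalises the arrays it is given, yet array medians differed between the sets, so ranks within an array were compared.

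Of the probe sets, 62 controls, 1043 with several symbols and 2108 with none were left out. Symbols of 19052 of the other 19064 were updated to RefSeq names (GRCh38.p14) through the gene ID. Each of 11963 genes was represented by its brightest probe set on average over all 12 arrays. Sets were compared with limma 3.58.1 in R 4.3.3 (lmFit, eBayes with a mean-variance trend), tested on simulated data and called at a Benjamini-Hochberg adjusted p under 0.05. SEs are limma's moderated ones. The number of arrays limits the precision.

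The members and the 23 gene lists were chosen with earlier results of these data known, and lists are described without a list test. The rule for named genes takes the 5 identity markers, HDAC5 and KDM1A; the 10 genes with the highest lowest position; and the 12 largest rank and 5 largest log2 differences each way, among called genes without overlap whose brighter set has a mean of at least 50. It adds up to 5 called members per list with the largest differences and up to 6 bright members of each baseline list. Other genes named, and the promoters printed, were chosen after their values were seen. Alternatives were deposited and quantile-normalised log2 values, 1 fit of 12 arrays, other probe set choices, no dim genes, no trend, each array left out, and a replicate block for the shRNA arrays.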

Additional observations from a re-analysis of the deposited data

How the results depend on the processing

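The number of genes called between the scramble sets was 6984 to 8149 when 1 array was left out and 5513 to 9276 under the other alternatives, with fewer genes tested at the low end. The count past 20 points was 167 to 219 when 1 array was left out, highest without tagged replicate B, and 142 to 181 otherwise. With the mean of the probe sets, 131 of the 177 genes were kept. The shRNA arrays gave 4341 to 7205 called genes when 1 array was left out and 4130 to 8371 otherwise. Their shared numbers do not pair the arrays (correlations of deviations 0.164, 0.163 and -0.012), and with a replicate block 5300 genes were called. The scramble sets share no replicate names, so no block was possible there.

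Of 157 named genes, 132 were called. On the deposited log2 values, where the tagged set is brighter in most genes, 9 changed sign: CD3E (-0.30), COL1A2 (-0.22), DSG2 (-0.31), HBB (-0.023), KDM1A (-0.15), KRT18 (-0.25), RPS18 (-0.12), RPS23 (-0.17) and RPS9 (-0.15). Without probe sets that can match related genes, 6 changed sign in points: ERBB3 (-3.39), ESR1 (12.2), GDF15 (-0.295), GNAT1 (1.92), HMGN5 (9.14) and RPL37A (6.5). With the mean of the probe sets, 5 did: HBB (-1.94), KRT7 (4.57), MDM2 (0.512), SLC39A6 (1.58) and THBS1 (1.39). Without 1 array, AXL, CD3E, ESR1, GFAP, KRT19 and RPS9 each lost their call under at least 1 choice. Signals at the level of genes of other organs, such as INHBE and IFI44L in the tagged set, limit how exactly a ratio can be given.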
